A study of Mus musculus with 12 samples.

Results

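The B2 loci described here are copies of the mouse short interspersed repeat B2 that were covered by sequenced RNA from chromatin. They were chosen as the annotated loci of the family SINE/B2 with a mean of at least 20 reads over 6 libraries, and 37446 of 346646 annotated B2 loci (10.8%) passed, among 4929385 repeat loci of all families. The B2 loci were then split by position, with 348 that overlapped a deposited m6A interval by at least 1 base and 37098 that overlapped none. The loci were thus chosen by their mean number of reads in these libraries, so levels are given as a description.

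B2 elements carry an internal promoter for RNA polymerase III, and most genomic copies also sit within or beside genes, where they are copied as part of longer RNA polymerase II transcripts. N6-methyladenosine (m6A) is placed on RNA as it is made, including repeat-derived RNA that stays on chromatin, and Alkbh5 is an enzyme that removes it. Short reads over a B2 locus do not tell an RNA started at its own promoter from a longer RNA that runs through it.

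The cells were E14TG2a mouse embryonic stem cells, kept in serum with LIF and the inhibitors PD0325901 and CHIR99021. The 3 groups were wild type (WT), Alkbh5-/- (KO) and a line labelled Alkbh5 del-cIDR (ΔcIDR), in which a disordered region of Alkbh5 named cIDR was deleted. Each group had 2 libraries of chromatin-associated RNA enriched with an m6A antibody, and the labels do not say that replicates came from separate cultures, so the tests below measure the spread between these libraries, which may be technical. Both KO libraries carry the name KO6, whose 6 is not explained, and a shared origin from 1 clone is possible. ΔcIDR was assigned to the KI columns by elimination, and the tables' description as m6A matrices is why their columns were taken as immunoprecipitated. No input column was used, so m6A per RNA, the amount of RNA, the number of gene copies and the share of cells that make the RNA cannot be told apart in any value below.

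The libraries held 20922839 to 26267351 reads on repeats, of which 12.3% to 12.6% lay on B2 loci. The loci that passed the minimum held 72.5% to 73.9% of those B2 reads. On this depth the median absolute difference between replicates at a B2 locus was 0.31 in WT, 0.27 in KO and 0.31 in ΔcIDR on the log2 scale. Tests were made on repeat-normalised read levels (RPM, a library's reads at a locus scaled to its repeat total), as log2(RPM + 0.05), with each library centred on its median over the 234605 repeat loci of all families that passed the same minimum. A locus was called where the adjusted p of limma over all those loci was below 0.05, and a fold change on this scale understates the change of loci with few reads.

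Coverage was spread over many B2 copies. The median B2 locus had 37.5 reads per library, with quartiles of 26.7 and 60.8, while 3885 loci had at least 100 reads and 81 had at least 500. The 10 loci with the most reads held 0.671% of the reads of all 37446, and the top 1% held 7.94%. At the other end, 138916 annotated B2 loci (40.1%) had 0 reads in all 6 libraries. Near-full-length copies made up most of the covered loci, as 81.2% were 150 to 219 bp long, and 12.4% of annotated copies of that length passed the minimum, against 4.21% of copies under 100 bp. A longer locus can hold more reads, and per 100 bp the median was 20.2 reads at 150 to 219 bp and 51.0 reads under 100 bp, where a passing locus needs a higher density.

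Covered B2 loci lay close together. Joined where neighbours were within 10 kb, they formed 13188 clusters, and 82.3% of the loci were in clusters of 2 or more. The largest cluster held 55 B2 loci over 129 kb (chr11:23208565-23337567, GRCm39), and 122 clusters held at least 20. Chromosomes differed in the share of annotated B2 copies that passed, from 15.0% on chromosome 11 and 13.4% on chromosome 8 to 4.11% on X and 0.12% on Y. Loci of 1 cluster can share 1 transcript, so they are not independent of each other.

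At the minimum itself, the loci chr10:108227923-108228097, chr10:12477568-12477782 and chr10:127914036-127914125 were just inside, each with a mean of 20 reads. The loci chr10:119510438-119510613, chr10:17817362-17817504 and chr10:39014274-39014424 were just outside, each with 19.8. Of the 37446 B2 loci, 4620 (12.3%) would have been below 20 reads without the group in which they were highest, and 3099 had a WT mean below 20. Among the 24 loci named below for the size of a called difference, 18 would also have been below 20 reads without their highest group. Where the highest group of such a locus is part of the comparison, the direction was fixed in part by how the locus was chosen, and these loci are pointed out below.

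At the 5 B2 loci with the most reads outside m6A intervals KO was below WT by -0.16 to -0.70 on the log2 scale, and 1 of them was called. The highest, chr9:72577209-72577393, had 2095 and 2812 reads in the WT libraries, 2515 and 1974 in KO, with 3053 and 2962 in ΔcIDR. WT replicate 1 was the low WT library, and WT and KO overlapped. The difference on the log2 scale was -0.31 ± 0.13 (SE, n = 2 and 2) for KO against WT and 0.40 ± 0.13 for ΔcIDR against WT, and neither was called (limma, adjusted p = 0.17 and 0.25). The next in level was chr12:109616661-109616841, with 91.2 ± 10.1 RPM in WT (SD, n = 2), 77.2 ± 3.17 in KO and 85.4 ± 5.33 in ΔcIDR, and it was called in neither comparison. The called locus was chr4:137344507-137344716. Its reads were 1164 and 1335 in WT, 880 and 860 in KO, with 1364 and 1333 in ΔcIDR, so both KO libraries were below all others, by -0.70 ± 0.13 against WT (limma, adjusted p = 0.0011).

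**Figure D1:**
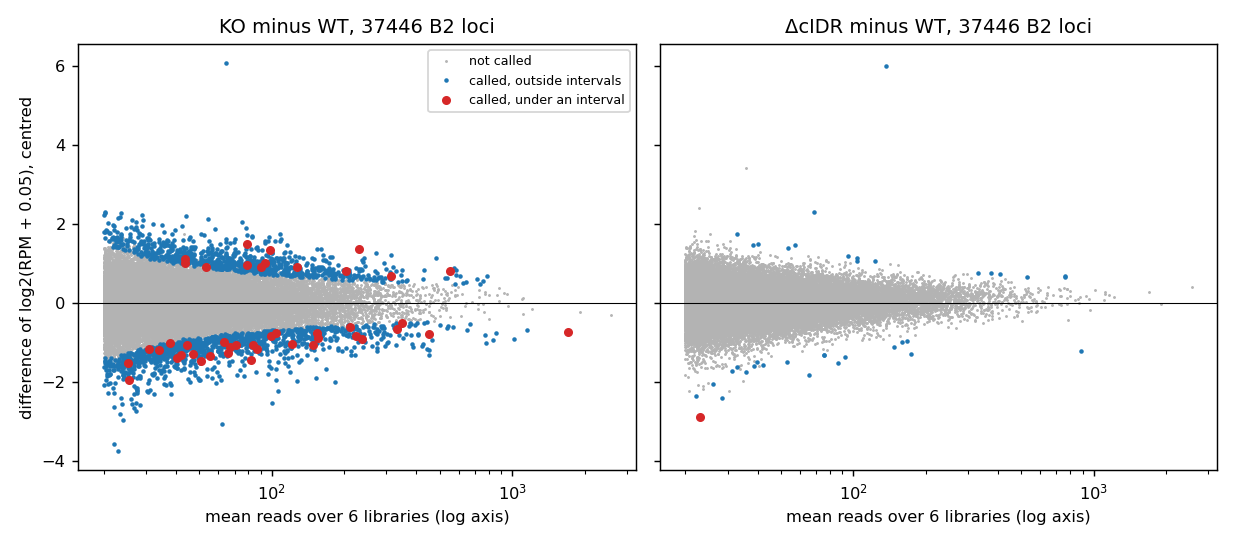
Change against WT at each of the 37446 B2 loci (points) by its mean reads over 6 libraries on a log axis; the vertical axis is the difference of group means of log2(RPM + 0.05), KO on the left and ΔcIDR on the right. Blue and red points passed an adjusted p of 0.05, red ones under an m6A interval: 1998 in KO and 38 in ΔcIDR, with 1 locus near a difference of 6 in each panel.

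The total over B2 loci depended on the scale. On the deposited scale, set by the m6A-modified spike-in RNA, the summed signal of the B2 loci in KO differed from WT by -0.30 ± 0.32 on the log2 scale (SE, n = 2 and 2), and that of ΔcIDR by 0.42 ± 0.03. Set against the reads of the ERCC RNAs the differences were 0.11 ± 0.03 and -0.24 ± 0.05, and against the unmodified spike-in -0.08 ± 0.73 and -0.76 ± 0.71. Per repeat read they were 0.02 ± 0.02 and 0.01 ± 0.02. The direction for B2 as a whole thus flipped between scales in both mutants, and no direction is given for it here. The differences that follow are relative to the other repeats of the same library, except where the deposited scale is named.

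Relative to all tested repeat loci, the median B2 locus moved by hundredths of a log2 unit. By library, the B2 median after centring was -0.00071 and -0.011 in WT, 0.0041 and -0.025 in KO, with 0.012 and 0.028 in ΔcIDR. The KO libraries lay on both sides of the WT libraries, while both ΔcIDR libraries were above the other 4. The median change was -0.0022 ± 0.015 for KO against WT and 0.028 ± 0.0095 for ΔcIDR against WT (SE from the medians by library, which differed by -0.0044 and 0.026). With 2 libraries against 2 an exact permutation test cannot give a two-sided p under 0.333. In KO the B1 family stood at 0.02, B4 at 0.05, ID at 0.05 and MIR at 0.05 on the same measure. In ΔcIDR it was 0.037 for B1, -0.0021 for B4, 0.016 for ID and -0.0033 for MIR, so B1 stood above B2. The ΔcIDR shift of B2 was 0.012 over loci with at least 50 reads and 0.017 without ΔcIDR replicate 2.

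In KO, B2 loci changed in both directions. Of 37446 loci, 1998 were called against WT (5.34%, against 7.57% of all tested repeat loci), 849 higher and 1149 lower, where 3.28% of all repeat loci were higher and 4.29% lower. Higher loci had a median difference of 1.05 and lower loci of -1.10. The shares in the other SINE families were 5.17% for B1, 5.91% for B4, 5.64% for ID and 6.80% for MIR, so the B2 share was within their range and under the share of all repeats. The count fell when any WT or KO library was left out, as did that over all repeat loci. With chromosomes 6, 8 and 11 left out the B2 count was 1189, beside 11788 over all repeat loci. With every locus that had a read in the fit it was 0, beside 40 over all tested repeat loci. There 6347 B2 loci had an unadjusted p under 0.05 (limma), and this number is not given here for all repeat loci. On the deposited scale 32 B2 loci were called higher and 962 lower in KO, beside 0.227% and 3.64% of all repeat loci (3.86% together).

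The 5 named B2 loci that were lower in KO had 0 to 10 reads in each KO library. The locus chr17:6842886-6843067 had 58 and 74 reads in WT, 6 and 10 in KO, with 118 and 105 in ΔcIDR. Both KO libraries were far below every other library, at 0.328 ± 0.14 RPM against 3.02 ± 0.52 in WT (SD, n = 2), a difference of -3.07 ± 0.32 (limma, adjusted p = 8.0e-07). Other repeats within 2 kb went from 125 and 142 RPM in WT to 8.30 and 9.04 in KO, so the B2 locus was part of a longer stretch that was low in KO.

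Comparable stretches surrounded most of the others. At chr7:34449244-34449421 the reads were 24 and 39 in WT, 2 and 1 in KO, with 35 and 36 in ΔcIDR. Over the pooled libraries WT was above KO by a ratio of 23.8 with a 95% counting interval of 7.78 to 118, and the fit gave -3.75 ± 0.56 (limma, adjusted p = 0.00011). Its 6 neighbouring repeat loci had a median difference of -1.92, in the same direction. At chr16:4968849-4969043 the reads were 22 and 29 in WT, 4 and 0 in KO, with 33 and 45 in ΔcIDR. The fitted difference was -3.59 ± 0.65 (limma, adjusted p = 0.00079) beside a neighbour median of -2.70. At chr13:57924289-57924484 they were 40 and 29, 7 and 2, and 25 and 42, with a difference of -2.96 ± 0.51 (limma, adjusted p = 0.00053). In reads, both ΔcIDR libraries were above WT at the chromosome 16 locus, within the WT range at that on chromosome 7, and on either side of both WT libraries at that on chromosome 13. The chromosome 7 and 16 loci would have been below the minimum without ΔcIDR. The chromosome 7 locus would also have been below it without WT, so its lower level in KO was fixed in part by how it was chosen. The remaining locus, chr9:119924383-119924572, had 105 reads in WT replicate 1 but 9 in WT replicate 2, 4 and 4 in KO, with 11 and 7 in ΔcIDR. Its difference of -2.83 ± 0.80 (limma, adjusted p = 0.029) went to -1.13 and was no longer called without WT replicate 1. This locus and the one on chromosome 13 passed the minimum only through WT, so their lower level in KO was fixed in part by how they were chosen.

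Of the loci named as higher in KO, the one with the largest difference did not share it with the repeats beside it. The locus chr19:5871196-5871388 had 0 and 3 reads in WT, 86 and 292 in KO, with 4 and 3 in ΔcIDR. Both KO libraries were above all others and differed from each other by more than their depth, at 7.89 ± 6.53 RPM (SD, n = 2). KO exceeded WT by a ratio of 111 with a 95% counting interval of 37.8 to 542, and the fit gave 6.06 ± 0.76 (limma, adjusted p = 1.2e-05), which depends on the pseudocount because WT held 3 reads. The call was lost without KO replicate 2 (5.10, limma adjusted p = 0.088). It passed the minimum only through KO, so its direction was fixed in part by how it was chosen. The other repeats within 2 kb showed no such step and summed to 3.29 and 4.12 RPM in WT, 3.31 and 3.69 in KO, with 2.72 and 2.82 in ΔcIDR.

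The other 4 loci of that list started from few WT reads. At chr11:51710606-51710736 the reads were 7 and 7 in WT, 50 and 38 in KO, with 10 and 10 in ΔcIDR. At chr2:152489022-152489229 they were 9 and 13, 62 and 62, and 13 and 14. KO was above both other groups at each, with differences from WT of 2.29 ± 0.52 and 2.22 ± 0.42 (limma, adjusted p = 0.0062 and 0.0012). The loci chr9:68780103-68780284 and chr5:36528031-36528205 both differed by 2.27. All 4 had a WT mean below the minimum and passed it through KO, so their direction was fixed in part by how they were chosen, and all 4 calls were lost without KO replicate 2. The calls of the loci on chromosomes 9 and 11 were also lost on the deposited scale.

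**Figure D2:**
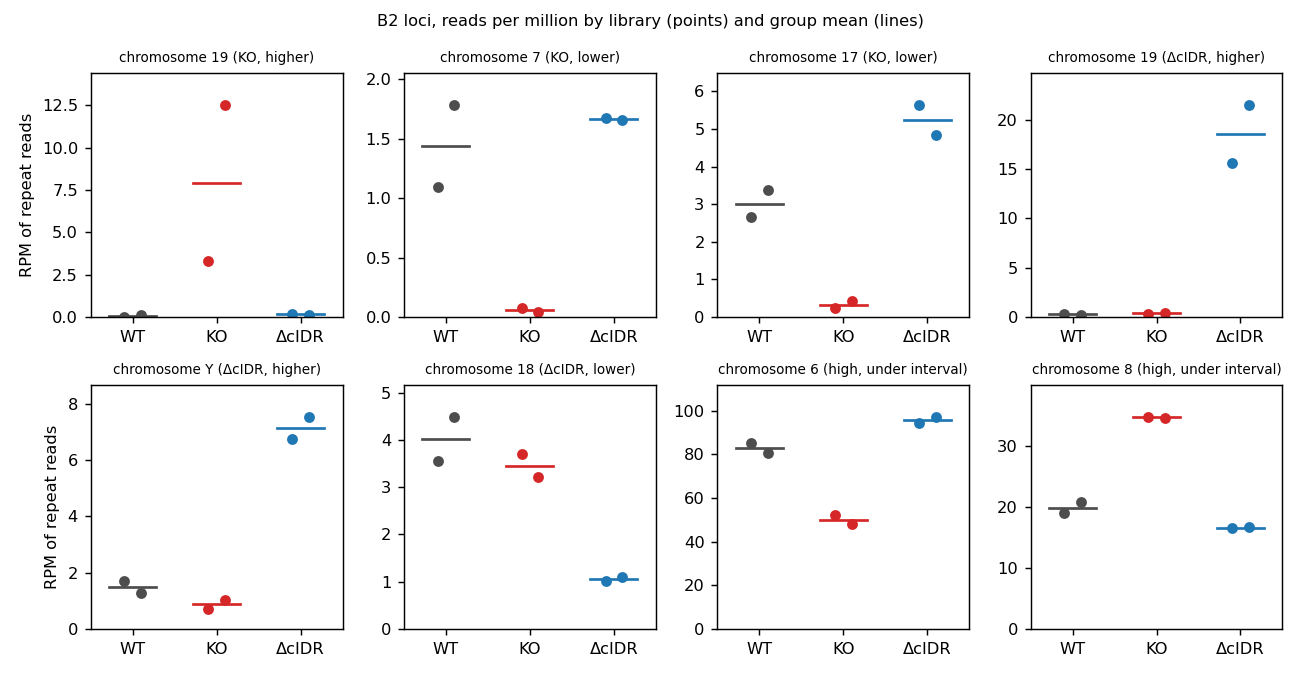
RPM of 8 named B2 loci in each library (points; WT grey, KO red, ΔcIDR blue; n = 2 libraries per group) with the group mean as a line; each panel has its own linear axis from 0, and its title gives the chromosome and why the locus was named. On chromosome 19 the first locus has reads almost only in KO and the second almost only in ΔcIDR, while the loci on chromosomes 7 and 17 are near 0 in KO alone.

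Called B2 loci and the repeats around them lay on the same side of 0. For 35146 B2 loci with at least 3 tested repeat loci of other families within 10 kb, the median difference of those neighbours was taken. Of 802 B2 loci called higher in KO, 778 (97.0%) had a neighbour median above 0, and of 1026 called lower, 994 (96.9%) had one below 0. Over all 35146 B2 loci, 52.2% had a neighbour median above 0. The size was smaller in the neighbours, with a median of 0.64 beside 1.03 for the higher B2 loci and of -0.67 beside -1.08 for the lower ones. Across these loci the Pearson correlation of a B2 difference with its neighbour median was 0.66, given as a description because the loci share libraries and transcripts. Without chromosomes 6, 8 and 11, 305 of 327 higher loci and 897 of 925 lower loci had neighbours on the same side, where 46.2% of all 27296 B2 loci had a neighbour median above 0.

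**Figure D3:**
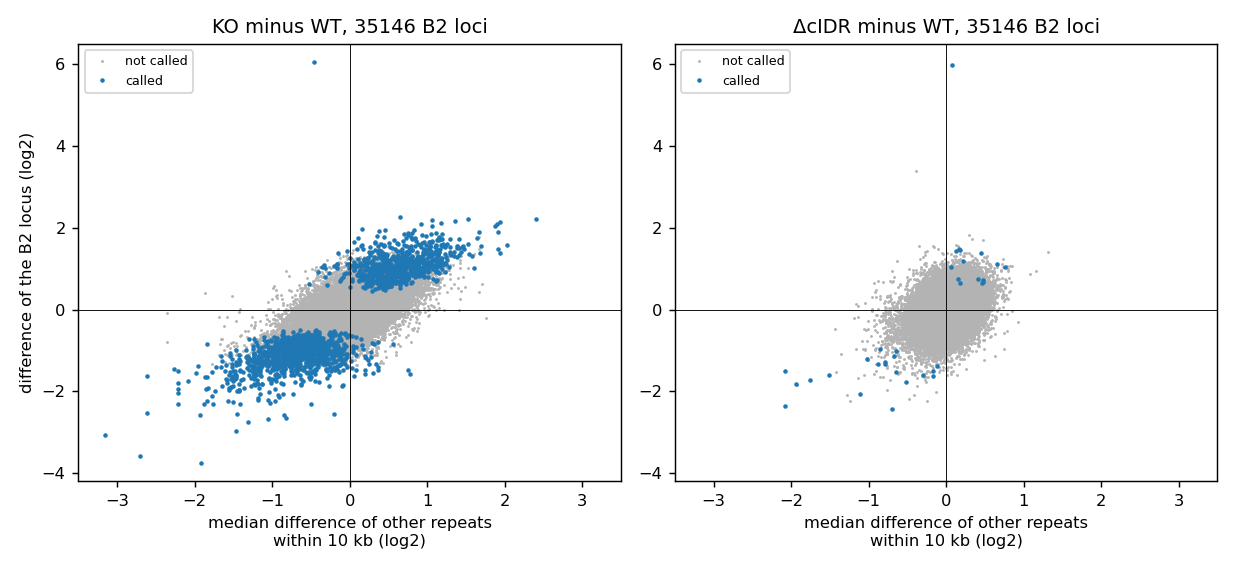
Difference of each B2 locus from WT (vertical axis, log2) against the median difference of tested repeats of other families within 10 kb (horizontal axis, log2), for 35146 B2 loci; KO on the left, ΔcIDR on the right, called loci in blue. In KO, 97.0% of called higher loci and 96.9% of called lower loci have neighbours on the same side, and the 2 points near 6 on the vertical axis are the chromosome 19 loci.

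Called B2 loci also shared direction within clusters. The 1998 loci fell into 1364 clusters, and of 295 clusters with at least 2 called loci, 292 held calls in 1 direction only. The clusters named next were picked after their values were seen, for their many calls in 1 direction. Their counts and levels are thus a description. At chr17:71070246-71114447, 19 of 27 B2 loci were called lower in KO and none higher. Their summed level was 103 and 109 RPM in WT, 47.1 and 52.1 in KO, with 115 and 108 in ΔcIDR. At chr4:137322784-137390488, 18 of 29 were called lower, and the sums were 267 and 277, 160 and 158, and 314 and 291 RPM. At chr10:117520409-117543961, 15 of 19 were called lower, with 126 and 130, 59.9 and 57.8, and 167 and 174 RPM. In these 3 clusters both KO libraries lay below all 4 others. In the opposite direction, 10 of 16 B2 loci at chr6:144937374-144972027 were called higher in KO, and the sums were 57.1 and 66.8 RPM in WT, 106 and 114 in KO, with 53.4 and 46.9 in ΔcIDR. Other clusters were less uniform. At chr11:23208565-23337567, 9 of 55 were called higher. At chr10:62650795-62742820, 8 of 40 were called higher and 1 lower, and 26 of the 40 differed by more than 0.

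The higher loci were concentrated on 3 chromosomes. The median B2 difference between KO and WT was 0.35 on chromosome 6, 0.31 on chromosome 8 and 0.11 on chromosome 11, against -0.10 to -0.0052 on the other numbered chromosomes and X. Relative to the WT mean, the median was 0.42 and 0.32 in the KO libraries on chromosome 6, 0.36 and 0.30 on chromosome 8, and 0.13 and 0.09 on chromosome 11. Chromosomes 6, 8 and 11 held 22.1% of the B2 loci, 496 of the 849 called higher in KO (58.4%) and 121 of the 1149 called lower (10.5%). Repeats of other families on each numbered chromosome and X had nearly the same median as B2, with a gap of at most 0.03. Centred chromosome by chromosome on the other families, 538 B2 loci were called higher and 1044 lower, beside 14776 calls over all repeat loci.

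The unplaced scaffold JH584304.1 stood at the low end. It held 17 of the B2 loci, whose median relative to the WT mean was -0.82 in KO replicate 1, -0.89 in KO replicate 2, and 0.30 and 0.17 in ΔcIDR. Of these, 11 were called lower in KO, and the median over repeats of other families there was -1.09.

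**Figure D4:**
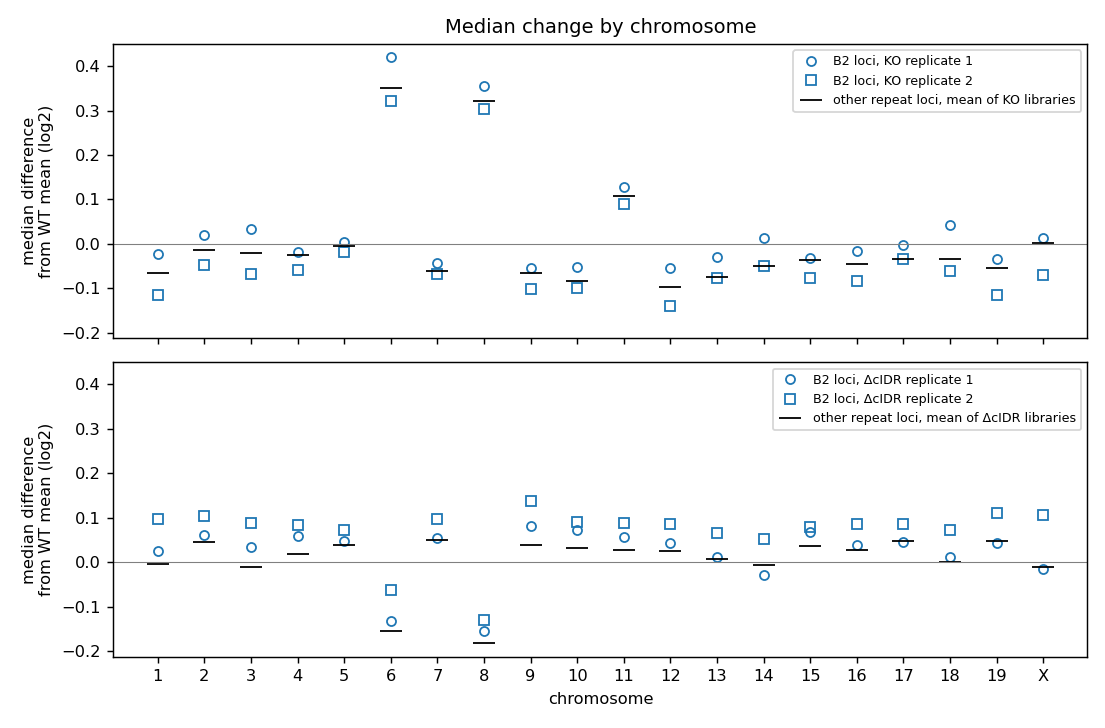
Median log2 difference of B2 loci from the WT mean on each numbered chromosome and X (horizontal axis) for each KO library (upper panel) and each ΔcIDR library (lower panel); circles are replicate 1, squares replicate 2, and black bars the median over repeats of other families with both libraries averaged. Chromosomes 6, 8 and 11 are above 0 in both KO libraries (0.35, 0.31 and 0.11 for the group difference), and chromosomes 6 and 8 below 0 in both ΔcIDR libraries.

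Few B2 loci were called in ΔcIDR. Against WT, 38 of 37446 passed (0.101%, against 0.253% of all tested repeat loci), 17 higher and 21 lower (0.116% and 0.138% of all repeat loci). An unadjusted p under 0.05 (limma) was found at 3269 of the 37446 B2 loci, beside 24675 of all 234605 tested repeat loci. The count of called B2 loci fell when any WT or KO library was left out, as all 6 libraries share 1 estimate of the spread. That over all repeat loci fell too. Among the fits without 1 library, the split moved most without a ΔcIDR library, toward lower loci, with 1 ΔcIDR library left. The split over all repeat loci in those fits is not given here. The count of called B2 loci was 11 on the deposited scale, 10 of them higher. There 0.0946% of all repeat loci were called, 0.0729% higher and 0.0217% lower. The KO comparison uses the same WT libraries, so values are set side by side only. The 849 B2 loci called higher in KO had a median ΔcIDR difference of 0.07 with quartiles of -0.19 and 0.34, and the 1149 called lower had one of 0.12 with quartiles of -0.10 and 0.34.

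The called B2 locus with the largest difference between ΔcIDR and WT lay 32.9 kb from the KO locus described above on chromosome 19. At chr19:5904298-5904475 the reads were 6 and 5 in WT, 8 and 10 in KO, with 327 and 466 in ΔcIDR. Both ΔcIDR libraries were above all others, at 18.6 ± 4.16 RPM against 0.251 ± 0.032 in WT and 0.367 ± 0.088 in KO (SD, n = 2). The difference from WT was 5.99 ± 0.36 (limma, adjusted p = 3.7e-10), and that from KO 5.54 ± 0.36. It passed the minimum only through ΔcIDR, so both directions were fixed in part by how it was chosen. The 10 other repeat loci within 10 kb had a median difference of 0.07 from WT.

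Other copies beside it, picked here after their values were seen, showed jumps in 1 library. The nearest B2 locus with over 20 reads in a library, chr19:5903333-5903531, had 6, 17, 13, 23, 20 and 23 reads in the WT, KO and ΔcIDR libraries in that order and showed no step. A B1 locus at chr19:5904852-5904998 had 176 reads in ΔcIDR replicate 1 and 3 to 33 in the other 5 libraries. A MaLR fragment at chr19:5904999-5905016 had 177 reads in KO replicate 2 and at most 1 elsewhere. The chromosome 19 B2 locus differed from these in that both of its ΔcIDR libraries were high.

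The other higher loci in ΔcIDR changed less. At chrY:1285108-1285299 the reads were 37 and 28 in WT, 19 and 24 in KO, with 141 and 163 in ΔcIDR. The ΔcIDR libraries were above all others, with a difference from WT of 2.29 ± 0.29 (limma, adjusted p = 9.2e-05). This was 1 of only 5 B2 loci of chromosome Y that passed the minimum. The loci chr9:108144353-108144540, chr5:134697613-134697753 and chr9:121555985-121556167 differed from WT by 1.74, 1.49 and 1.47, and each lost its call when either WT library was left out. The first of these 3 passed the minimum only through ΔcIDR.

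Called ΔcIDR loci and their neighbours lay on the same side of 0, with smaller values in the neighbours. All 15 higher loci with at least 3 neighbours had a neighbour median above 0 and all 20 such lower loci one below 0, where 55.9% of all B2 loci had one above 0. The neighbour values had a median of 0.22 beside 1.05 for the higher B2 loci and of -0.79 beside -1.52 for the lower ones, and the chromosome 19 locus is counted among them with 0.07 beside 5.99. At chr18:50903145-50903357 the reads were 78 and 98 in WT, 97 and 75 in KO, with 21 and 24 in ΔcIDR, so that the ΔcIDR libraries alone were low, by -1.82 ± 0.27 (limma, adjusted p = 0.00071). This locus was not called on the deposited scale (-1.48, limma adjusted p = 0.11). At chr18:50871824-50872016 they were 30 and 33, 29 and 31, and 4 and 6, a difference of -2.35 ± 0.47 (limma, adjusted p = 0.023). From one of these loci to the other is a span of 31.5 kb, picked after the values were seen, in which all 3 B2 loci were called lower. The loci at its ends were already named for being lower, so their calls follow from how the span was set. The 7 other tested repeat loci of that span summed to 26.0 and 27.4 RPM in WT, 17.2 and 18.9 in KO, with 6.60 and 6.42 in ΔcIDR.

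The remaining loci of the lower list were of different kinds. At chr4:146665573-146665730, which lay wholly under an m6A interval, the reads were 44 and 44 in WT, 10 and 30 in KO, with 3 and 7 in ΔcIDR. Its difference was -2.89 ± 0.56 (limma, adjusted p = 0.016), and it had no tested repeat of another family within 10 kb. At chr6:34903125-34903284 the reads were 23 and 24, 65 and 51, and 2 and 5, so ΔcIDR was below and KO above WT. Its difference from WT was -2.42 ± 0.48 in ΔcIDR (limma, adjusted p = 0.022) and 1.07 ± 0.48 in KO, which was not called (limma, adjusted p = 0.19). At chr9:73014344-73014535 the reads were 43 and 32 in WT, 30 and 36 in KO, with 8 and 7 in ΔcIDR, a difference of -2.07 ± 0.42 (limma, adjusted p = 0.024). The calls of these 3 loci, and that of chr18:50871824-50872016, were lost when either WT library was left out. The chromosome 6 and 9 loci and chr18:50871824-50872016 were not called on the deposited scale. The chromosome 4 locus and chr18:50871824-50872016 passed the minimum only through WT, and their direction was fixed in part by it, while the chromosome 6 locus passed only through KO.

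The mutants were also compared with each other. Against KO, ΔcIDR had 3086 B2 loci higher and 2396 lower, 5482 in all (14.6%, against 18.2% of all tested repeat loci, of which 9.65% were higher and 8.57% lower). The count fell when any KO or ΔcIDR library was left out, as did that over all repeat loci. Without chromosomes 6, 8 and 11 the B2 count was 3432, beside 28780 over all repeat loci. On the deposited scale 9754 B2 loci were called higher and 160 lower, beside 26.6% and 0.772% of all repeat loci (27.3% together). Chromosomes 6, 8 and 11 held 1329 of the 2396 lower and 340 of the 3086 higher loci, and the B2 median was -0.46 on chromosome 6 and -0.47 on chromosome 8.

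The loci that differed most between the mutants were largely those already described. The 4 most strongly higher in ΔcIDR were the chromosome 19, 16, 7 and 17 loci above, with differences of 5.54, 4.27, 4.05 and 3.91. The fifth, chr12:23275497-23275673, had 21 and 28 reads in WT, 6 and 2 in KO, with 43 and 70 in ΔcIDR, a difference of 3.81 ± 0.49 (limma, adjusted p = 4.5e-06), with WT between the mutants. In the lower direction, chr7:30173503-30173579 had 10 and 10 reads in WT, 64 and 47 in KO, with 4 and 2 in ΔcIDR, a difference of -3.55 ± 0.60 (limma, adjusted p = 0.00014). It belonged to a cluster of 5 B2 loci, all 5 called higher in KO than in WT, with sums of 5.98 and 6.04 RPM in WT, 20.2 and 22.1 in KO, but 2.39 and 3.23 in ΔcIDR. At chr1:170791691-170791880 the reads were 22 and 9, 53 and 81, and 2 and 6, and at chr5:64567583-64567765 they were 22 and 24, 79 and 47, and 10 and 1. All 5 lower loci passed the minimum only through KO, and the higher loci of chromosomes 19, 16, 7 and 12 only through ΔcIDR, so their directions were fixed in part by how they were chosen.

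The 348 B2 loci under m6A intervals were 0.929% of the B2 loci that passed, against 1.45% of B1, 1.05% of ID and 1.75% of MIR loci and 6.94% of all tested repeat loci. They lay on 338 intervals, 215 of them were covered over at least 50% of their length and 96 over all of it, and the median overlap was 102 bp. Their median level was 47.8 reads, against 37.5 outside. Per 100 bp the median was 30.0 reads on the B2 loci and 54.4 on the intervals they overlapped, and 104 of the 348 were denser than their interval.

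The highest locus under an interval was lower in KO. The locus chr6:122690585-122690771 had 1866 and 1763 reads in WT, 1371 and 1120 in KO, with 1976 and 2103 in ΔcIDR. Both KO libraries were below all others, at 50.1 ± 2.97 RPM against 82.9 ± 3.21 in WT (SD, n = 2), a difference of -0.73 ± 0.12 (limma, adjusted p = 0.00036), on a chromosome whose B2 median was 0.35 higher in KO. At chr8:43640422-43640579 the reads were 415 and 455 in WT, 913 and 809 in KO, with 346 and 362 in ΔcIDR, and the KO libraries were above all others by 0.80 ± 0.14 against WT (limma, adjusted p = 0.00078). The median over its 27 neighbours was 0.57.

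Of the 10 highest under intervals, 4 were called in KO and none in ΔcIDR. The other called loci were chr7:3361329-3361527, with 479 and 498 reads in WT, 302 and 334 in KO, but 566 and 514 in ΔcIDR, and chr12:83588469-83588676, with 338 and 329, 274 and 256, and 461 and 433. Both were lower in KO, by -0.80 ± 0.15 and -0.51 ± 0.16 (limma, adjusted p = 0.0015 and 0.041). The 6 that were not called had KO differences between -0.41 (chr9:110729177-110729362) and 0.39 (chr17:47085273-47085418).

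Most B2 loci under intervals were not called in KO. The call rate was 44 of 348 (12.6%), with 13 higher and 31 lower, against 1954 of 37098 (5.27%) outside, and 7.57% of all tested repeats. The call rate rose with reads in both classes. At 20 to under 50 reads it was 5.98% under intervals and 3.12% outside, at 50 to under 100 reads 17.4% and 7.19%, and at 100 reads and more 23.6% and 14.8%. The difference between these rates was not tested, as loci of 1 transcript are not replicates.

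**Figure D5:**
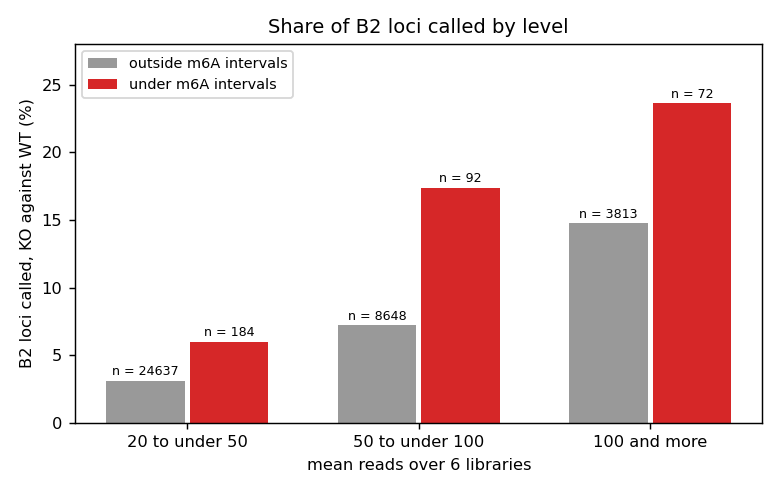
Share of B2 loci called in KO against WT (vertical axis, percent) by mean reads over 6 libraries, for loci under m6A intervals (red) and outside (grey), with the number of loci above each bar. Shares are 5.98%, 17.4% and 23.6% under intervals and 3.12%, 7.19% and 14.8% outside.

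The median change of B2 loci under intervals, minus that outside, was -0.12 ± 0.04 for KO against WT (SE, n = 2 and 2). The SE was taken from the medians by library, whose own difference was -0.11. By library, this gap was -0.0094 and 0.066 in WT, -0.071 and -0.085 in KO, with 0.084 and 0.0022 in ΔcIDR, so both KO libraries were below the other 4. An exact permutation test of 2 libraries against 2 cannot give a two-sided p under 0.333. The gap was -0.17 without chromosomes 6, 8 and 11 and -0.026 over loci with at least 50 reads. By level, the median KO difference at 20 to under 50 reads was -0.15 under intervals and 0.0024 outside. At 50 to under 100 reads it was -0.097 and 0.018, and at 100 reads and more 0.036 and 0.022, where loci under intervals were not lower. For ΔcIDR against WT the gap was 0.03 ± 0.06 (0.015 from the medians by library), within the spread between libraries.

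Few B2 loci owed their reads to 1 library. In 8 of 37446 (0.0214%) a single library held at least 50% of the summed RPM, against 0.0416% of the other tested repeat loci. The most extreme, picked after its values were seen, was chr19:8709672-8709846, with 214 reads in ΔcIDR replicate 2, 1 in WT replicate 1 and 0 in the other 4 libraries. The next was chr9:78408569-78408708, with 106 reads in the same library and 2 to 12 elsewhere. The named loci chr19:5871196-5871388, where that library was KO replicate 2, and chr9:119924383-119924572, where it was WT replicate 1, were also among the 8.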

How the data were processed

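The deposited tables hold a normalized read signal, per the labels, for 6 libraries read as m6A immunoprecipitated, on repeat loci and on m6A intervals (GRCm39). Tools listed in the submitters' processing notes, without versions or roles, include the aligner HISAT2, the counter featureCounts and the peak caller MACS2. How reads that map to several repeat copies were treated is not given in the sources used here, so reads of near-identical B2 copies may be split or misplaced between loci. Dividing each deposited column by its smallest nonzero signal gave whole reads for 100% of the values (tolerance 1e-06), and the scaling factor follows the reads of the m6A spike-in (814 to 1870 per library). RPM was computed here from those reads.

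The log2 of RPM + 0.05, centred per library, was fitted with limma 3.58.1 in R 4.3.3 over 234605 loci and all 6 libraries, with a variance trend and Benjamini-Hochberg adjustment at 0.05. edgeR 4.0.16 served as an alternative. Overlaps used bedtools 2.31.1, with repeat starts counted from 1 and interval starts from 0, and tables Python 3.11.15. Intervals from read counts are exact, at the 95% level, and cover counting error only. The members, lists and named loci (10 highest under and 5 outside intervals, and 5 per direction and comparison among called loci whose libraries did not overlap, and 3 on each side of the minimum) were chosen with earlier results of these data known. Genes and sequences were not used here, as the tables carry no gene names.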

Additional observations from a re-analysis of the deposited data

How the results depend on the processing

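For the 30 called pairs of a named locus and a comparison (the 15 highest loci were not refitted), each alternative that could test a pair kept its direction. The pairs were chosen with libraries that did not overlap between the groups, so leaving out 1 library could not reverse a direction. The replicate block and the fit with all loci that had a read leave the difference itself unchanged. The kept direction is thus no test of these pairs. On the deposited scale 6 of the 30 calls were lost, and with all loci that had a read in the fit 25. The relative median of KO against WT, within its error of 0, took either sign, from -0.016 to 0.012 without 1 library. Counts of called B2 loci moved most. On the deposited scale they were 994 for KO against WT, 11 for ΔcIDR against WT and 9914 for ΔcIDR against KO. With all loci that had a read in the fit they were 0, 0 and 134, beside 40, 0 and 1886 over all tested repeat loci. There 6347, 2922 and 9467 B2 loci had an unadjusted p under 0.05 (limma), and these numbers are not given here for all repeat loci. With the minimum, edgeR called 2248, 46 and 5653 B2 loci, beside 19832, 783 and 44122 repeat loci in all. Without chromosomes 6, 8 and 11, where fewer loci were tested, the B2 counts were 1189, 32 and 3432, beside 11788, 485 and 28780. At a minimum of 50 reads they were 1491, 27 and 3185, beside 13374, 483 and 27175. Counted as clusters, ΔcIDR against KO gave 3373. Same-numbered samples of different groups share only a number (correlations of their deviations 0.05, -0.18 and -0.07). With the replicate number as a block the B2 counts were 1486, 20 and 4661, beside 13741, 380 and 37162 over all repeat loci. The block ended 1 of the 30 named calls (chr5:134697613-134697753, ΔcIDR against WT). Leaving out 1 library gave 438 to 2258 loci for KO against WT, 7 to 42 for ΔcIDR against WT and 2146 to 5710 for ΔcIDR against KO. In these fits the count over all repeat loci rose or fell with the B2 count, so the ranges are no feature of B2 alone. The exception was ΔcIDR against WT without ΔcIDR replicate 2, where the B2 count rose and that over all repeat loci fell. The relative median of ΔcIDR against WT was 0.012 at 50 reads and 0.017 to 0.037 without 1 library, and that of ΔcIDR against KO 0.011 and 0.018 to 0.048. The gap between loci under and outside intervals in KO was -0.026 at 50 reads and -0.17 without chromosomes 6, 8 and 11. The cause of these shifts was not tested. Among B2 loci with 20 to under 25 reads the smallest called KO difference was 1.33, and at 100 reads and more 0.47.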
